A study of Mus musculus with 4 samples.

Results

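The 10 genes that carry sulfur from methionine to glutathione were examined: Mat2a, Mat2b, Ahcy and Mtr of the methionine cycle, Cbs and Cth of transsulfuration, and Slc7a11, Gclc, Gclm and Gss of cystine uptake and glutathione synthesis. They were taken by symbol, and each of the 10 had 1 row among the 23282 rows of the count tables. All 10 passed the filter on low counts and were tested within the 13070 rows that passed it. Transcript ends were sequenced from primary pancreatic acinar cells of C57BL/6J mice, the cells that make digestive enzymes. The 2 groups each held 2 libraries and differed in the adenovirus given, which carried the gene for green fluorescent protein (GFP) as the control or that for the estrogen-related receptor γ (ERRγ, gene Esrrg). Both groups shared a multiplicity of infection of 100, collection at 36 h and a medium with 25 ng/ml human epidermal growth factor, 2.5% serum and a trypsin inhibitor, so the control cultures received a viral vector too. Whether a group's libraries are from separate mice or cultures is not in the labels, and p-values therefore measure the spread between these libraries only, which may be technical.

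Methionine is activated to S-adenosylmethionine, the methyl donor of the cell, and the product left after methyl transfer is hydrolysed to homocysteine. Homocysteine is either methylated back to methionine or passed into transsulfuration, where cystathionine β-synthase (Cbs) joins it to serine and cystathionine γ-lyase (Cth) releases cysteine. Cysteine, also taken up as cystine, is joined to glutamate and then to glycine to give glutathione, the main thiol antioxidant, and the exocrine pancreas is known for a high demand for methionine and glutathione. ERRγ is an orphan nuclear receptor that binds DNA and is known for genes of oxidative metabolism.

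The libraries held 10.1 to 11.01 M counts. Levels are in CPM, counts per unit of a library size scaled by TMM, given as mean ± SD with n = 2, and 3 counts in a library, the most that a count of 0 allows, come to 0.268 to 0.307 CPM. Esrrg stood at 130 and 1284 CPM in ERRγ libraries 1 and 2 and at 8.80 and 9.60 CPM in the GFP libraries (log2 fold change 6.26, SE 1.00, adjusted p = 0.0109), so that ERRγ library 2 had 9.90 times the level of library 1; a viral transcript is counted there only where it shares the end sequence of Esrrg. Esrrg no longer passed without GFP library 1 (adjusted p = 0.168), without GFP library 2 (0.127) or with limma-voom (log2 fold change 5.46, adjusted p = 0.0623), and leaving out ERRγ library 1 or 2 gave a log2 fold change of 7.12 or 3.81. The cultures had few acinar transcripts: the 7 acinar markers summed to between 15.9 and 47.5 CPM over the 4 libraries, Ptf1a had no count in any, and the 6 duct markers summed to between 2346 and 3336 CPM. In these bulk libraries fewer cells of a type and less RNA per cell cannot be told apart.

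In all, 3 of the 10 genes changed with ERRγ. Cbs fell 2.75-fold, whereas Cth, which encodes the next enzyme, rose 2.92-fold and Gss, which encodes the last enzyme of glutathione synthesis, rose 2.18-fold. The other 7 did not pass an adjusted p of 0.05 in edgeR's quasi-likelihood test. Of all genes tested, 5.06% rose and 1.78% fell by this rule (6.84% called in either direction), against 2 of 10 and 1 of 10 here. The median log2 fold change was 0.04 over the 10 genes and −0.01 over all genes tested. The groups did not overlap in 7 of the 10, 4 higher and 3 lower with ERRγ, and in 54% of all genes tested (27.4% higher and 26.6% lower).

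**Figure D1:**
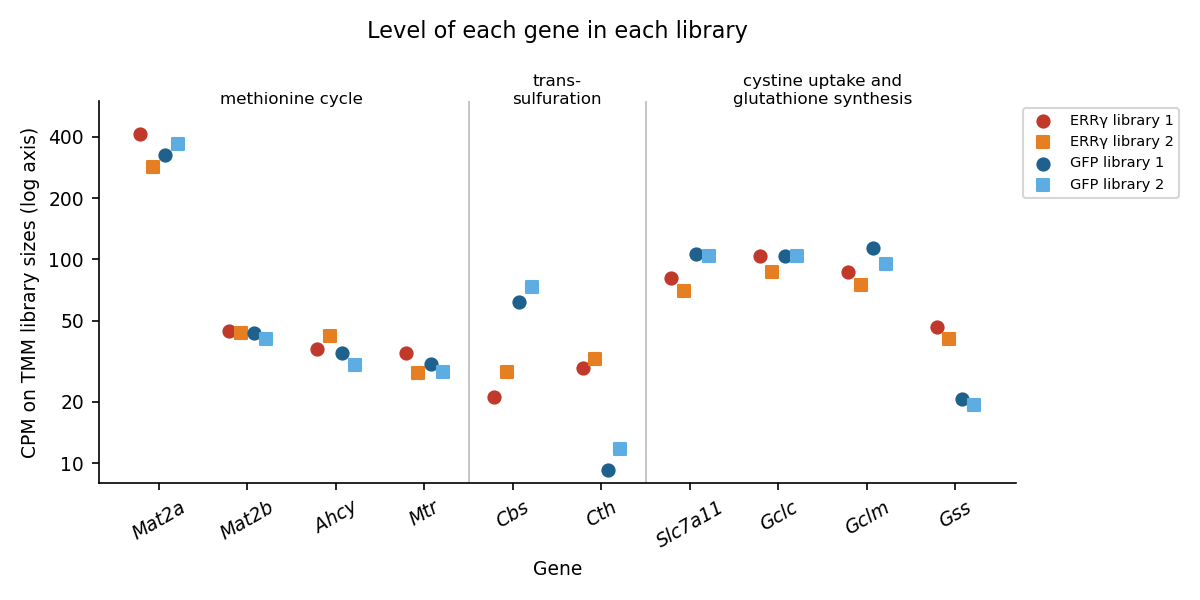
Level of each of the 10 genes in each library, as CPM on TMM library sizes on a log axis, with 1 point per library and the genes ordered by pathway step. The ERRγ points of Cbs (21.2 and 28.0) lie below the GFP points (61.8 and 73.5), and those of Cth and Gss lie above.

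In transsulfuration, both genes changed and in opposite directions. Cbs, the entry enzyme that condenses homocysteine with serine (chromosome 17, 31608894 to 31637238, minus strand, GRCm38), stood at 21.2 and 28.0 CPM in ERRγ libraries 1 and 2 and at 61.8 and 73.5 CPM in GFP libraries 1 and 2. Both ERRγ libraries lay well below both GFP libraries: the lowest GFP value was 2.21 times the highest ERRγ value. The means were 24.6 ± 4.75 and 67.7 ± 8.28 CPM, a log2 fold change of −1.46 (SE 0.18, 95% interval −1.88 to −1.04, adjusted p = 0.00464), and the value lies at the 0.979th percentile of all genes tested. Without GFP library 2 the log2 fold change was −1.33 and no longer passed, and without GFP library 1 it was −1.585 and passed only narrowly. Leaving out ERRγ library 1 or 2, when the spread is taken from the GFP pair alone, gave −1.28 or −1.67.

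Cth, which cleaves cystathionine to cysteine (chromosome 3, 157894248 to 157925077, minus strand), stood at 29.3 and 32.4 CPM with ERRγ and at 9.31 and 11.8 CPM with GFP. Here both ERRγ libraries were high and both GFP libraries low, and the closest values of the groups differed 2.49-fold. The means were 30.8 ± 2.22 and 10.5 ± 1.73 CPM (log2 fold change 1.55, SE 0.21, 95% interval 1.06 to 2.03, adjusted p = 0.00621). Without GFP library 1 the change was 1.38 and did not pass (adjusted p = 0.0927), and without GFP library 2 it was 1.72 (0.0464). The annotation places the unclassified gene Gm43314 on the same strand within Cth, and it had no row of its own.

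The enzymes act in succession, so the 2 transcripts were also compared within each library, where no library size enters. Cbs took 42.0% of the summed Cbs and Cth counts in ERRγ library 1 (exact 95% binomial interval, 37.9 to 46.2) and 46.3% in ERRγ library 2 (42.3 to 50.4). In the GFP libraries it took 86.9% (84.2 to 89.3) and 86.2% (83.9 to 88.3), and these intervals cover counting error only. Cbs was thus the more counted of the pair in both GFP libraries and the less counted in both ERRγ libraries, although the interval of ERRγ library 2 reaches past 50%. The log2 ratio of Cbs to Cth, with 0.5 added to each count, was −0.34 ± 0.18 with ERRγ and 2.68 ± 0.06 with GFP. The difference was −3.02, an 8.11-fold fall of the ratio, and leaving out any 1 library gave −3.14 to −2.89. A two-sided exact permutation test gave p = 0.333, the smallest that 2 libraries against 2 allow. The ratio itself depends on how well reads map to each transcript end, so its change between libraries, and not its level, is the comparison.

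**Figure D2:**
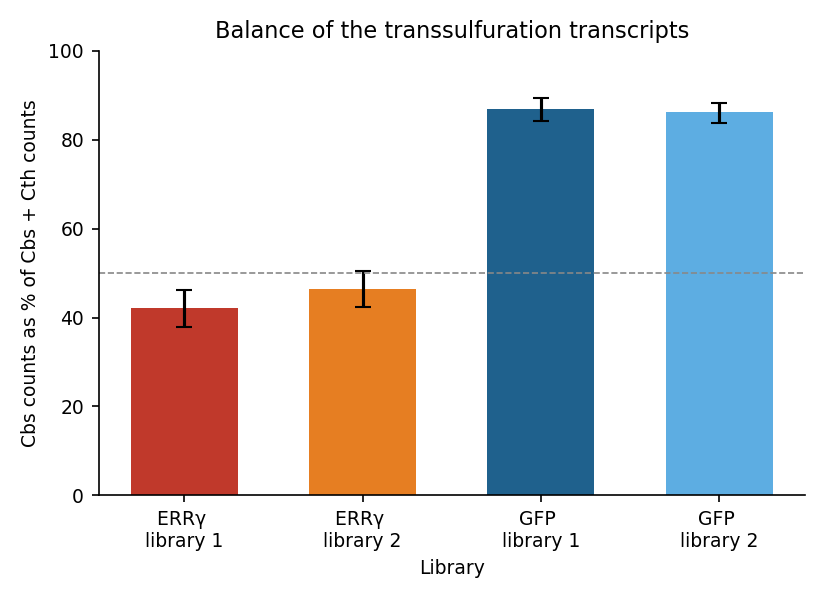
Cbs counts as a percentage of Cbs plus Cth counts in each library, with exact 95% binomial intervals that cover counting error only and a dashed line at 50%. The GFP libraries stand at 86.9% and 86.2% and the ERRγ libraries at 42.0% and 46.3%.

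The summed level of the pair moved less than either gene: 50.5 and 60.4 CPM in ERRγ libraries 1 and 2, and 71.1 and 85.3 CPM in GFP libraries 1 and 2. Between the ERRγ libraries, Cbs was 1.32 times and Cth 1.11 times as high in library 2 as in library 1, while Esrrg was 9.90 times as high. The last 500 bases of the Cbs transcript share a stretch of 142 bases with an Araf transcript (95.1% identity) and of 119 bases with a Ube2e1 transcript (96.6%). Of these neighbours in sequence, Araf was at 541 and 422 unscaled counts with ERRγ against 488 and 551 with GFP. Ube2e1 had 895 and 999 against 819 and 1030. Whether reads were shared between these rows and Cbs was not tested.

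The introduced factor binds DNA, so the bases before the start sites of the changed genes were read from RefSeq promoters on GRCm38.p6, which matched 8 of the 10 genes (all but Cth and Gclc). Searched on both strands within 250 bases before the start were TNAAGGTCA, the extended ERR element, AGGTCA, the nuclear receptor hexamer that is part of it, TGACNNNGC, the antioxidant response element, and TGATGNAA, the C/EBP-ATF response element. Of 32851 promoter windows of that length, these occurred in 1.14%, 14.02%, 10.2% and 3.45%. Cbs (chr17:31637239-31637455, minus strand, the part of its window before the annotated gene) held none of the 4 motifs. Gss (chr2:155592811-155593060, minus strand) held 1 AGGTCA, in capitals, 77 to 72 bases before the start, and no extended element. The sequences are shown because these genes moved in opposite directions.
Cbs: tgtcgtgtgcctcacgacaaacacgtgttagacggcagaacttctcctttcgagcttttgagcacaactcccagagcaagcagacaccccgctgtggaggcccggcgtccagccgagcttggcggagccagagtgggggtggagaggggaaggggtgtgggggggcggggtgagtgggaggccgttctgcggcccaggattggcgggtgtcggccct
Gss: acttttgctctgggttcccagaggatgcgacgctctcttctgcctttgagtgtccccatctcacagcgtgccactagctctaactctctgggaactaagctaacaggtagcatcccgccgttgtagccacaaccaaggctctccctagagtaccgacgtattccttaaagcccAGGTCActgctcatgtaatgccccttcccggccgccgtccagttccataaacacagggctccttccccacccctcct
All 250 bases of each of the 8 windows were searched, also where fewer are shown, and none held the extended ERR element. The Mat2b window lies within the longer gene that GENCODE annotates. Ahcy also held 1 AGGTCA, 205 to 200 bases before its start. A match or its lack describes these letters only.

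Of the 4 genes of cystine uptake and glutathione synthesis, Gss passed the test. Glutathione synthetase adds glycine to γ-glutamylcysteine, the last step (chromosome 2, 155563181 to 155592810, minus strand). Gss stood at 46.6 and 40.7 CPM in ERRγ libraries 1 and 2 and at 20.8 and 19.2 CPM in GFP libraries 1 and 2. The groups were well apart, with 1.96-fold between their closest values, and each pair of libraries was tight. The means were 43.6 ± 4.15 and 19.99 ± 1.10 CPM (log2 fold change 1.13, SE 0.16, 95% interval 0.75 to 1.503, adjusted p = 0.00778). The size hardly moved without GFP library 1 (1.18) or GFP library 2 (1.07), but the call ended in both cases (adjusted p = 0.105 and 0.101). Gss overlaps the protein-coding gene Acss2 and the antisense genes Gssos1 and Gssos2 on the opposite strand, and the use of strand in counting is not given in the sources used here. Acss2, an acetyl-CoA synthetase, was at 71 and 58 counts in the ERRγ libraries and at 5 and 22 in the GFP libraries (log2 fold change 2.25, adjusted p = 0.0651). Gss had 522 and 412 counts in the ERRγ libraries and 203 and 214 in the GFP libraries. Whether reads of one were counted in the other was not tested.

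Neither subunit of glutamate-cysteine ligase, the enzyme of the first step of glutathione synthesis, passed the test. Gclc, its catalytic subunit (chromosome 9, 77754535 to 77794485, plus strand), stood at 103 and 86.4 CPM with ERRγ and at 103 and 104 CPM with GFP. ERRγ library 1 was level with the GFP libraries and ERRγ library 2 lay below them (log2 fold change −0.12, 95% interval −0.45 to 0.21, adjusted p = 0.66). Gclm, its modifier subunit (chromosome 3, 122245557 to 122270732, plus strand), stood at 87.0 and 74.98 CPM against 114 and 95.2 CPM. Both ERRγ values were the lower ones, by as little as 1.09-fold between the closest libraries, and the difference did not pass (log2 fold change −0.37, 95% interval −0.72 to −0.01, unadjusted p = 0.0431 and adjusted p = 0.20). With ERRγ library 1 left out, when the spread is taken from the GFP pair alone, the log2 fold change was −0.48. Within each library the log2 ratio of Gss to Gclc was −1.12 ± 0.05 with ERRγ and −2.37 ± 0.08 with GFP, a difference of 1.25 (exact permutation p = 0.333, the smallest possible).

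Slc7a11 encodes xCT, the transport subunit of the cystine-glutamate exchanger (chromosome 3, 49892526 to 50443614, minus strand). It stood at 81.3 and 70.1 CPM with ERRγ and at 106 and 104 CPM with GFP. The GFP libraries were nearly equal and both above the ERRγ libraries, by at least 1.28-fold. The means of 75.7 ± 7.88 and 105 ± 1.72 CPM gave a log2 fold change of −0.47 (SE 0.14, 95% interval −0.79 to −0.15, adjusted p = 0.089), which did not pass. With ERRγ library 1 left out, when the spread is taken from the GFP pair alone, the log2 fold change was −0.58. Slc7a11 passed with no filter on low counts (−0.48, adjusted p = 0.0367). The promoter of Slc7a11 (chr3:50443615-50443863, minus strand) is shown because it was the one window of the 8 with the C/EBP-ATF element, here as 2 matches on opposite strands, in capitals, at 66 to 59 and 47 to 40 bases before the start.
Slc7a11: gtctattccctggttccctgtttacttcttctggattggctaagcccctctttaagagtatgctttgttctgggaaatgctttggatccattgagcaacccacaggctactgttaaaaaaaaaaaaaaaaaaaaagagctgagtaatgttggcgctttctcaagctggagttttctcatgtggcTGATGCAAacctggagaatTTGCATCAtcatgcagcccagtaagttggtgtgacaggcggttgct
Gclm held 1 antioxidant response element match, 134 to 126 bases before its start, and no other of the 8 windows held one.

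**Figure D3:**
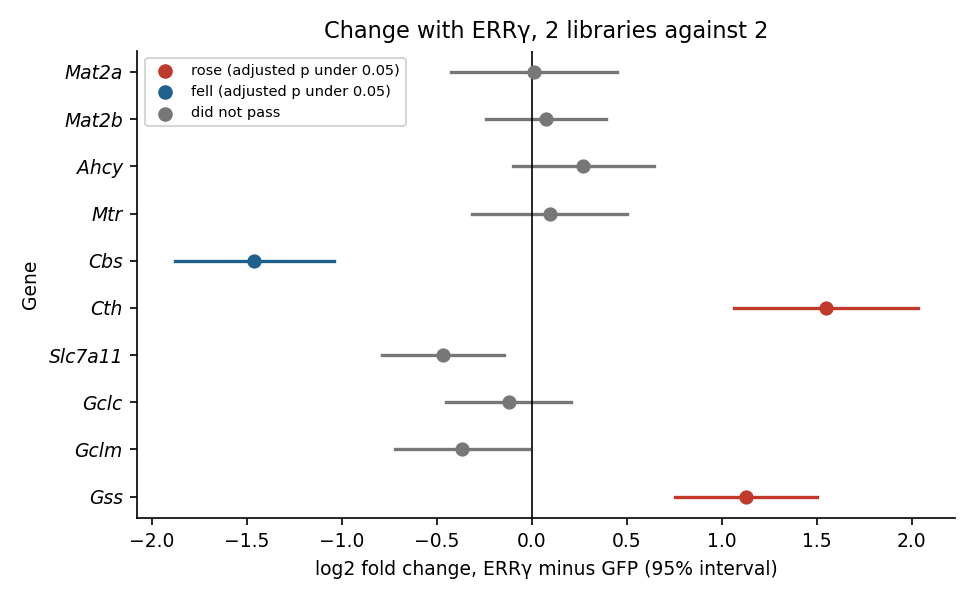
Log2 fold change of each gene, ERRγ minus GFP, with its 95% interval from edgeR's quasi-likelihood fit to 2 libraries a group. Cbs lies to the left of 0 (−1.46), Cth (1.55) and Gss (1.13) lie to the right, and the 7 genes in grey did not pass.

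None of the 4 methionine cycle genes passed edgeR's test, DESeq2 (0) or limma-voom (0), and 0 of 4 had an unadjusted p under 0.05 in edgeR. Over all genes tested, 23.1% had such an unadjusted p, DESeq2 called 8.89% and limma-voom 6.66%. Mat2a, the catalytic subunit of the methionine adenosyltransferase of most tissues (chromosome 6, 72432799 to 72439558, minus strand), stood at 412 and 285 CPM in ERRγ libraries 1 and 2 and at 325 and 367 CPM in GFP libraries 1 and 2. The ERRγ libraries lay on either side of the GFP libraries, 1.44-fold apart, the widest split of the 10 genes. The log2 fold change was 0.01 (SE 0.19, 95% interval −0.43 to 0.45, adjusted p = 0.979), and it changed sign with the library left out (−0.28 without ERRγ library 1 and 0.25 without ERRγ library 2). Mat2b, its regulatory subunit (chromosome 11, 40679314 to 40695203, minus strand), stood at 44.7 and 43.7 CPM against 43.4 and 40.6 CPM. All 4 values were close (log2 fold change 0.07, 95% interval −0.24 to 0.39, adjusted p = 0.797).

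Ahcy, which hydrolyses S-adenosylhomocysteine to homocysteine (chromosome 2, 155059310 to 155074497, minus strand), stood at 36.3 and 42.2 CPM with ERRγ and at 34.7 and 30.4 CPM with GFP. The ERRγ values were the higher ones, by 1.05-fold at the closest, and the difference did not pass (log2 fold change 0.27, 95% interval −0.10 to 0.64, adjusted p = 0.361). The last 500 bases of Ahcy share 81 identical bases with Gm4737, a single-exon copy on chromosome 16, whose own row held 160 and 185 counts in the GFP libraries and 249 and 304 in the ERRγ libraries. Reads of the 2 may have been split, so both values are uncertain. Their sum was 58.5 and 72.2 CPM with ERRγ and 51.1 and 47.0 CPM with GFP. Mtr, the cobalamin-dependent methionine synthase (chromosome 13, 12182712 to 12258113, minus strand), stood at 34.9 and 27.7 CPM against 30.6 and 28.1 CPM. The groups overlapped (log2 fold change 0.09, 95% interval −0.31 to 0.50, adjusted p = 0.803), and the sign changed without ERRγ library 1 (−0.08).

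Among themselves, 7 of the 10 genes were higher in ERRγ library 1 than in library 2, and Ahcy, Cbs and Cth were higher in library 2. The median absolute log2 difference between the ERRγ libraries was 0.22 over the 10 genes and 0.25 over all genes tested, and between the GFP libraries it was 0.15 and 0.20.

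Around these steps, 88 related and regulator genes were listed and 79 were tested, of which Slc1a5 and Slc25a39 rose and Csad fell. That is 3.797% of the 79, below the 6.84% of all genes tested, and the median log2 fold change was 0.09. Slc1a5 encodes ASCT2, a carrier of glutamine and other neutral amino acids, and stood at 51.5 and 57.5 CPM with ERRγ and at 12.2 and 17.5 CPM with GFP. Both ERRγ libraries were far above the GFP libraries, and the rise was 3.66-fold (log2 fold change 1.87, SE 0.20, adjusted p = 0.00267); it passed without any single library. It was the 1 of 10 tested transport and glutamate genes that changed. Slc3a2, the heavy chain that pairs with Slc7a11, stood at 303 ± 9.52 and 227 ± 54.6 CPM (log2 fold change 0.42, adjusted p = 0.215).

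Slc25a39, the carrier that brings glutathione into mitochondria, stood at 329 and 336 CPM with ERRγ and at 174 and 187 CPM with GFP. Each pair of libraries was tight, and the rise was 1.84-fold (log2 fold change 0.88, SE 0.13, adjusted p = 0.00896). The call ended without GFP library 1 (0.82, adjusted p = 0.165) or GFP library 2 (0.93, adjusted p = 0.106). It was the 1 of 17 tested genes of glutathione export, breakdown and recycling that changed. That is 5.88%, near the 6.84% of all genes tested. Gsr, which reduces oxidised glutathione, stood at 147 ± 7.76 and 123 ± 7.87 CPM (log2 fold change 0.26, adjusted p = 0.295).

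Csad, the decarboxylase that leads from cysteine sulfinate towards taurine, stood at 18.3 and 17.8 CPM with ERRγ and at 31.4 and 38.1 CPM with GFP. The ERRγ libraries were nearly equal and below both GFP libraries, a 1.93-fold fall (log2 fold change −0.95, SE 0.18, adjusted p = 0.0212) that did not pass without GFP library 1 (−1.08, adjusted p = 0.119) or GFP library 2 (−0.80, adjusted p = 0.197). It was the 1 of 8 tested genes of cysteine and sulfide breakdown that changed (12.5%, against 6.84% of all genes tested).

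Methionine remethylation, salvage and polyamine synthesis had none of 16 tested genes called by edgeR, DESeq2 or limma-voom. These tools called 6.84%, 8.89% and 6.66% of all genes tested, so lists this short can hold no call without differing from them. In edgeR, 3 of the 16 had an unadjusted p under 0.05, against 23.1% of all genes. The smallest p there was that of Bhmt, a betaine-dependent methyltransferase that remakes methionine, with 27 and 29 counts against 6 and 5 (log2 fold change 2.29, adjusted p = 0.0671, and 0.0363 with no filter on low counts). The methyltransferases that use S-adenosylmethionine had none of 9 called by these tools and 1 at an unadjusted p under 0.05, Tpmt, the thiopurine methyltransferase gene (0.88, adjusted p = 0.0956). Tpmt passed with no filter on low counts (adjusted p = 0.0406), and without ERRγ library 2 its log2 fold change was 0.91.

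The regulators of glutathione genes were described through their own transcripts and targets. Nfe2l2, which encodes the antioxidant regulator NRF2, was at 308 ± 13.8 CPM in the GFP libraries and 305 ± 2.15 CPM in the ERRγ libraries (log2 fold change −0.02, adjusted p = 0.955). Of the 9 genes in its list none was called by edgeR or limma-voom, 2 had an unadjusted p under 0.05, and DESeq2 called 2, Srxn1 (sulfiredoxin) as higher and Nqo1 (a quinone reductase) as lower. Over all genes tested these shares were 23.1% and 8.89%. In edgeR's fit Srxn1 had a log2 fold change of 0.54 (adjusted p = 0.0751) and Nqo1 of −0.87 (0.0963). Atf4, the amino acid response factor, stood at 789 ± 149 and 733 ± 1.38 CPM (0.11, adjusted p = 0.75). Of 10 genes in the ATF4 list none was called by edgeR or limma-voom, 2 had an unadjusted p under 0.05 and DESeq2 called 1 as higher, Shmt2 of mitochondrial one-carbon metabolism (0.57 and adjusted p = 0.0689 in edgeR's fit), shares near those over all genes.

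**Figure D4:**
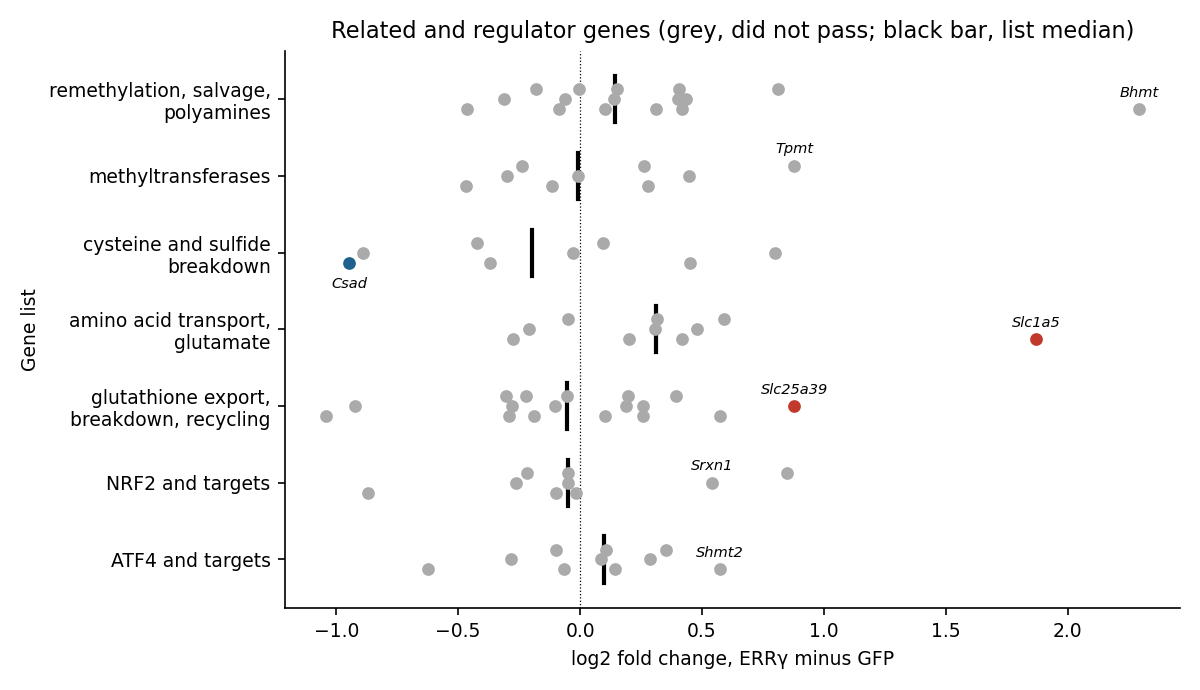
Log2 fold change, ERRγ minus GFP, of the 79 tested related and regulator genes, 1 point per gene by list, with the list median as a black bar. Slc1a5 (1.87) and Slc25a39 (0.88) in red rose, Csad (−0.95) in blue fell, and the grey points did not pass.

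The genes whose profile over the 4 libraries lay nearest to that of Cbs, by Euclidean distance of centred log2 CPM among 8735 tested rows with a mean of at least 10 CPM, were D17H6S56E-5 (0.16), 4833427F10Rik (0.25) and Timp2 (0.28), an inhibitor of matrix metalloproteinases. Nearest to Cth were Aldh1l1 (0.15), the 10-formyltetrahydrofolate dehydrogenase of cytosolic folate metabolism, Vnn1 (0.15), a pantetheinase that releases cysteamine, and Bdh1 (0.16), a ketone body dehydrogenase. Vnn1 stood at 82.8 and 83.5 CPM with ERRγ and at 26.8 and 30.2 CPM with GFP. With 4 libraries these distances describe a shared difference between the groups and little else.

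Markers of acinar and other cells were read beside these genes. The acinar markers summed to 41.3 to 44.7 CPM with ERRγ and 15.9 to 47.5 CPM with GFP. Of 6 tested, Prss2 (trypsinogen) alone was called, as higher (log2 fold change 2.78). It made up 26.8 CPM of the sum in ERRγ library 2. The others had log2 fold changes from −0.93 (Pnlip) to −0.04 (Cela1). Over all genes tested, 6.84% were called in either direction. The duct markers summed to 2346 to 2996 CPM with ERRγ and 3306 to 3336 CPM with GFP, and of 6 tested Krt7 fell and Cftr rose. The fibroblast markers summed to 550 to 633 and 509 to 746 CPM with no call among 7, and the islet markers to 8.001 to 30.2 and 19.2 to 135 CPM with no call among 5. Endothelial and leukocyte markers summed to at most 14.6 CPM in any library, and Cd3e had no count in any. The part of these cell types in the changes of Cbs, Cth and Gss was not tested.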

How the data were processed

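Whole-number read counts per gene symbol, 1 table per library, were used as the authors deposited them, without normalization. A Lexogen QuantSeq kit, per the labels, turned 500 ng of RNA into libraries of transcript ends, so a count depends little on transcript length. The submitters' processing notes name Bowtie2, edgeR and the build mm10; which counter, annotation, strand setting or filter was used is not given in the sources used here. Samples were grouped by title.

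The count test was edgeR 4.0.16 under R 4.3.3 (filterByExpr with a minimum count of 10, TMM, glmQLFit and glmQLFTest on group alone, 2 residual degrees of freedom, two-sided). P-values were adjusted by Benjamini-Hochberg over the 13070 tested genes, and calls were made at 0.05. The SE is the log2 fold change divided by the square root of F, and 95% intervals use the fit's total degrees of freedom and are not adjusted over genes. The test was tried on simulated counts. DESeq2 1.42.0 and limma 3.58.1 (voom), other scalings and filters, a replicate block and leaving out each library were alternatives. The members and lists were chosen with earlier results of these data known. All 10 members were named, and of each related list the genes past the threshold or the 1 with the smallest p, with the 3 profiles nearest to Cbs and to Cth; Slc3a2, Gsr, Nfe2l2, Atf4 and Nqo1, the marker genes and the neighbours in sequence were named besides, after their values were seen. Loci are from GENCODE M21 (GRCm38), sequences from RefSeq (GRCm38.p6). A copy was a match of at least 75 bases at 95% identity to the last 500 bases of a transcript.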

Additional observations from a re-analysis of the deposited data

How the results depend on the processing

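The calls for Cbs, Cth and Gss held with RLE size factors, library totals, no filter, a mean of at least 5 CPM, DESeq2, limma-voom, Rn45s left out and the replicate block, with log2 fold changes of −1.48 to −1.44, 1.54 to 1.57 and 1.12 to 1.16. Without a filter on low counts, 1271 genes rose and 738 fell in all, 2 of the 10 genes fell (Slc7a11 the second), and 7 related and regulator genes rose and 5 fell. By DESeq2, 4 of the latter rose and 3 fell, and with library totals 2 fell. When 1 library was left out, between 92 and 1597 genes rose and between 7 and 1098 fell in all; 0 to 2 of the 10 genes rose and 0 to 3 fell; and 1 to 8 related and regulator genes rose and 0 to 5 fell. The lowest of these counts of rises came without a GFP library, when the spread is taken from the ERRγ pair alone. The highest counts over all genes came without ERRγ library 1, when it is taken from the GFP pair alone. The log2 fold change of Mat2a was −0.0102 with limma-voom and −0.00988 with the replicate block, and −0.28 to 0.25 when 1 library was left out, and that of Mtr was then −0.0844 to 0.248. The ratio of Cbs to Cth fell in every setting tried (−3.14 to −2.89).

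Over all genes, same-numbered libraries did not deviate together (r = 0.007 across 13070 genes), and their numbers were not taken as pairs. That value cannot exclude a pairing that shows in few genes. The acinar markers Cpa1, Cela1, Pnlip and Amy2a5 were higher in library 1 than in library 2 of both groups. So were the islet markers Ins1, Ins2, Gcg, Ppy and Chga, whereas Prss2, Bhlha15 and Sst were not. Whether same-numbered libraries share a preparation is not in the labels and was not tested. With the replicate block 776 genes rose and 315 fell in all, 2 and 1 of the 10 genes as before, and 4 related and regulator genes rose and 3 fell, with Srxn1 (adjusted p = 0.0494) and Shmt2 (0.0372) added to the rises and Nqo1 and Ggct to the falls; the Cbs to Cth log2 ratio changed by −3.02 under the pairing as well. Counting error limits genes as low as Bhmt. With 2 libraries a group, the intervals of the 7 genes that did not pass leave room for changes, for Ahcy up to a log2 fold change of 0.64. The unadjusted intervals of Slc7a11 (−0.79 to −0.15) and Gclm (−0.72 to −0.01) did not include 0.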

Other observations

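The following genes were chosen after their values were seen, and no explanation was tested. Hmox1, the heme oxygenase gene of the NRF2 list, stood at 83.9 and 333 CPM in ERRγ libraries 1 and 2 and at 130 and 102 CPM in the GFP libraries, so the ERRγ libraries lay on either side of the GFP libraries (log2 fold change 0.85, adjusted p = 0.368). Hmox1 was called higher when ERRγ library 1 was left out and lower when ERRγ library 2 was left out. In both cases the spread is taken from the GFP pair alone. Ggct releases oxoproline from γ-glutamyl amino acids in glutathione breakdown. It stood at 23.3 and 31.7 CPM with ERRγ and at 62.0 and 42.2 CPM with GFP. Its log2 fold change of −0.92 missed the threshold (adjusted p = 0.0537). Ggct passed with DESeq2, with library totals, with the replicate block and with no filter on low counts. Mtap, which salvages methionine from polyamine synthesis, stood at 125 and 114 CPM against 178 and 151 CPM (log2 fold change −0.46, adjusted p = 0.0987). Mtap passed with no filter on low counts. Ethe1, the mitochondrial persulfide dioxygenase gene, stood at 59.2 and 61.7 CPM against 41.4 and 46.9 CPM (0.45, adjusted p = 0.102).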
